A study of Mus musculus with 8 samples.

Results

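B16-F10 mouse melanoma cells were profiled by RNA-seq after growth on matrix from smooth muscle cells that had received siFN, alone (TCM siFN) or together with siKLF4 (TCM siKLF4-siFN), and had then been kept in TCM. Each of these 2 libraries was set against TCM siNT, the library of cells grown on matrix from smooth muscle cells given siNT and the same medium. Genes were kept where at least 1 of the 3 libraries reached an FPKM (fragments per unit of gene length, relative to the fragments of the whole library) of 5, which left 2774 of 46477 rows. Of these, 1066 (38.4%) were higher in both siFN libraries than in TCM siNT, 1379 (49.7%) were lower in both, and 329 (11.9%) lay on opposite sides of it.

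The study held 8 libraries, 1 for each of 4 siRNA treatments (siFN, siKLF4-siFN, siKLF4 and siNT) in each of 2 media (TCM and SFM). TCM is read here as the tumor conditioned medium of the series title, siFN as siRNA against fibronectin, and siNT as the control siRNA. The smooth muscle cells had siRNA for 72 hours and the medium for another 72 hours. They were then lysed, the matrix was washed, and melanoma cells grew on it for 24 hours. The siRNA was thus given to the smooth muscle cells and not to the cells sequenced. The labels do not give the origin of the smooth muscle cells, and no library of those cells or measure of the matrix was analysed here. No test was run, because each condition had 1 library.

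Fibronectin is a matrix glycoprotein that cells assemble into fibrils and hold through integrins, the receptors that link matrix to the actin skeleton and to growth signalling. Krüppel-like factor 4 is a transcription factor known in smooth muscle for its role in the switch from a contractile to a synthetic state, in which more matrix is made. B16-F10 is a metastatic melanoma line that makes pigment. Adhesion to matrix is a known condition for many cell types to pass from G1 into DNA replication.

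The estimated depth was 19300000 reads for TCM siFN, 19700000 for TCM siKLF4-siFN, 14300000 for TCM siKLF4 and 13800000 for TCM siNT. For a 2 kb gene at an FPKM of 5 this gives a counting error of 7.20%, 7.12% and 8.51% in TCM siFN, TCM siKLF4-siFN and TCM siNT. Melanoma markers were present in the 4 TCM libraries. The FPKM of 8 markers summed to 428 in TCM siFN, 452 in TCM siKLF4-siFN, 461 in TCM siKLF4 and 512 in TCM siNT. Of the 6 markers past the floor of 5, 4 were higher in both siFN libraries than in TCM siNT, and 1 lay on opposite sides of it. The 1 lower in both was Tyrp1, so the lower sums do not describe most of these markers. The 8 smooth muscle markers summed to between 1.60 and 2.25 in the 4 TCM libraries, with Acta2 listed at 0 in every library. The 7 fibroblast markers summed to between 0.28 and 0.32 there, with 3 of them at 0 in every library. Of the 5 leukocyte markers, 2 were listed at 0 in every library, and the sum, nearly all of it Cd68, was 2.38 in TCM siFN, 1.96 in TCM siKLF4-siFN, 2.70 in TCM siKLF4 and 4.55 in TCM siNT. Of the 4 endothelial markers 2 were listed at 0 in every library, and the highest FPKM of any was 0.0021. The part of these cells in the results was not tested. Klf4 had an FPKM of 8.13 in TCM siFN, 7.80 in TCM siKLF4-siFN, 6.75 in TCM siKLF4 and 8.04 in TCM siNT. Fn1, which encodes fibronectin, had 2.54, 2.56, 2.63 and 2.93 in the same libraries. These values do not check the labels, since other cells received the siRNA.

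Before the single genes, the place of TCM siNT among the libraries has to be stated. The median absolute difference on the log2(FPKM + 1) scale, used throughout for differences, was 0.225 between TCM siFN and TCM siNT and 0.226 between TCM siKLF4-siFN and TCM siNT. It was 0.183 between TCM siKLF4 and TCM siNT, and 0.0687 between the 2 siFN libraries, the smallest of all 28 pairs. The labels do not say whether those 2 libraries came from separate cultures, so a gene on the same side of TCM siNT in both has no replicate check. The next 2 pairs were TCM siKLF4-siFN with SFM siKLF4 at 0.119 and TCM siFN with SFM siKLF4 at 0.123. For most genes described next, TCM siKLF4 lay with the siFN libraries, and TCM siNT stood apart from all 3. With 1 library each, siFN and whatever set TCM siNT apart cannot be told apart. With TCM siKLF4 as control in place of TCM siNT, 29 of 64 list medians over both siFN libraries did not keep their sign. The median over all rows with a mean FPKM of at least 1 was itself -0.07 against TCM siKLF4 in each siFN library. The value of TCM siKLF4 is therefore given beside each gene set against TCM siNT.

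**Figure D1:**
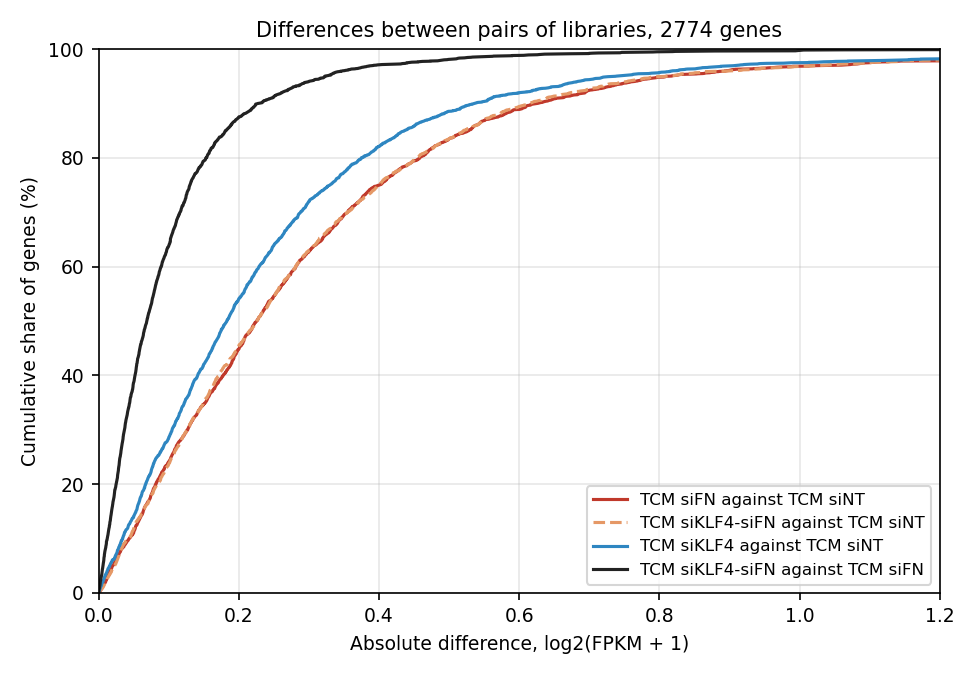
Cumulative share of 2774 genes (y axis, %) by the absolute difference between 2 libraries (x axis, log2(FPKM + 1)), 1 line per pair. The line of TCM siKLF4-siFN against TCM siFN climbs fastest (median 0.0687), that of TCM siKLF4 against TCM siNT comes next (0.183), and the lines of both siFN libraries against TCM siNT run together (0.225 and 0.226).

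A difference of at least 1, about 2-fold for well expressed genes, was reached in both siFN libraries by 68 higher genes (2.45% of 2774) and 6 lower genes (0.216%). Taken singly, TCM siFN had 78 genes higher by at least 1 (2.81%) and 9 lower (0.324%), and TCM siKLF4-siFN had 75 higher (2.7%) and 13 lower (0.469%). TCM siKLF4 against the same TCM siNT had 60 higher (2.16%) and 9 lower (0.324%). These comparisons share TCM siNT. The 68 genes had median differences of 1.30 in TCM siFN, 1.32 in TCM siKLF4-siFN and 1.27 in TCM siKLF4. The 6 lower genes had medians of -1.32, -1.28 and -1.12. Of the 68, 39 were annotated as protein coding and 24 as pseudogenes, whose reads can be shared with their parent genes. Of all 2774 genes, 1952 were protein coding and 713 pseudogenes. Of the 68, 39 passed the floor of 5 only through the siFN libraries and so had to be higher there, and gene lists are therefore counted over members whose FPKM averaged at least 1 across all 8 libraries. Over all 6917 such rows, 41.6% were higher in both siFN libraries and 44.8% lower, with 1.32% higher and 0.101% lower by at least 1. These shares are the background for all list counts below, where such members are called measured. The glycolysis and hypoxia, polyamine, AP-1 and immediate early, integrin, and YAP and SRF lists lay near them.

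Of the gene lists, mitosis and chromosome segregation had the most members higher by at least 1 in both siFN libraries. The promoters of 2 of them and of 2 interferon-stimulated genes are printed here because their lists hold the largest median differences. That of Hspa5 is printed because 17 of 20 endoplasmic reticulum chaperones, its list, were lower in both siFN libraries, none of them by at least 1. The sequences run from 250 bases before to 50 after the RefSeq gene start on GRCm38.p6, 5′ to 3′ on the gene's strand. Capitals mark CCAAT boxes (CCAAT or its reverse complement) and the cell cycle genes homology region (TTTGAA or its reverse complement) in Top2a, at chr11:99024140-99024439 on the minus strand, and in Cdca3, at chr6:124829926-124830225 on the plus strand. In Isg15, at chr4:156200769-156201068 on the minus strand, and Cxcl10, at chr5:92348840-92349139 on the minus strand, they mark the interferon-stimulated response element (GAAA, any 2 bases and GAAA, or its reverse complement), whose 3 matches in Isg15 overlap. In Hspa5, at chr2:34771840-34772139 on the plus strand, they mark the endoplasmic reticulum stress element (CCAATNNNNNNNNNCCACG or its reverse complement), which itself contains a CCAAT box.
Top2a: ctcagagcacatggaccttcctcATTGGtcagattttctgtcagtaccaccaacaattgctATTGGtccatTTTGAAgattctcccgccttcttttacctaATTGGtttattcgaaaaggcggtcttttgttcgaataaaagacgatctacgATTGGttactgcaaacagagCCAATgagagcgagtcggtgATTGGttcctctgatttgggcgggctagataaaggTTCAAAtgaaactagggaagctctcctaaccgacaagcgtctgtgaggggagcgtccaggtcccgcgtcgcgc
Cdca3: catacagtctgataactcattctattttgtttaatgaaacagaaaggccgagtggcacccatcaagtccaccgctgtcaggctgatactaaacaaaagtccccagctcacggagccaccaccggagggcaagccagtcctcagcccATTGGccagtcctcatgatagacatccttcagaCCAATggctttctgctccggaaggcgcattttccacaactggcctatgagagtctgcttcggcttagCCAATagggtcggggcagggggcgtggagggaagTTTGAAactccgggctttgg
Isg15: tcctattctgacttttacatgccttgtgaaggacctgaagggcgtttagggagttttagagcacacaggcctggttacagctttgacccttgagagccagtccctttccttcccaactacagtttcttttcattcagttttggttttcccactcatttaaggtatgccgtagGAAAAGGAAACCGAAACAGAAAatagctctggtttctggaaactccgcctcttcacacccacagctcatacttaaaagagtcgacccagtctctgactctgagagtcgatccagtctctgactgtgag
Cxcl10: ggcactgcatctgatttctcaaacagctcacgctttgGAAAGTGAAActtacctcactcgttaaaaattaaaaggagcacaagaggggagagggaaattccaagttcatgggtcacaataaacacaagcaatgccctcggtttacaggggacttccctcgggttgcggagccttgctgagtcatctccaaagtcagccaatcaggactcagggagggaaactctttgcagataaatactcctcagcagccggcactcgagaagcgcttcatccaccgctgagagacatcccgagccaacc
Hspa5: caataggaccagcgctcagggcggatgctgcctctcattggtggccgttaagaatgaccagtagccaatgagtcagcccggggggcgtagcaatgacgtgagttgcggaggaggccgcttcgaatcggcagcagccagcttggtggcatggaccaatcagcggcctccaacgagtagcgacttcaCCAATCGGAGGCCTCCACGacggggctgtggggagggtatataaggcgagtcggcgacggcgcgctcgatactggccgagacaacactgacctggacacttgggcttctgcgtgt

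The homology region is known as a site where complexes repress cell cycle genes outside division, and the CCAAT box as a site of the activator NF-Y. Both strands were searched in 27025 mouse promoters of 300 bases, 1 per gene. The homology region was found in 18.1% of them, a CCAAT box in 37.9% and both in 7.12%. Among the 42 of 52 mitosis genes with a promoter in the table, 32 (76.2%) held the homology region, 31 (73.8%) a CCAAT box and 28 (66.7%) both. A match says only that these letters are present.

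Of 28 measured genes of mitosis and chromosome segregation, all 28 were higher in both siFN libraries than in TCM siNT, against 41.6% of all rows, and 17 by at least 1, against 1.32%. Their median difference was 1.09 (TCM siFN) and 1.12 (TCM siKLF4-siFN), with 1.13 in TCM siKLF4. In bulk RNA, more dividing cells and more of these transcripts per cell cannot be told apart. Top2a, the topoisomerase that untangles chromosomes before they separate, lies on chromosome 11 (98992943 to 99024189, minus strand, GRCm38). It had an FPKM of 9.04 in TCM siFN, 9.12 in TCM siKLF4-siFN and 5.82 in TCM siKLF4, against 1.74 in TCM siNT, differences of 1.87 and 1.88 for the siFN libraries. Top2a was thus the mitosis gene with the largest difference by the rule used, and the siFN libraries were also above TCM siKLF4.

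The cyclins that drive entry into mitosis showed the same order of size, without a gap to TCM siKLF4 in the case of Ccnb1. Ccnb1, cyclin B1, had 8.33 in TCM siFN, 8.02 in TCM siKLF4-siFN and 8.30 in TCM siKLF4, against 2.04 in TCM siNT. Ccna2, cyclin A2, had 11.6, 10.9 and 9.61 in those libraries, against 3.23 in TCM siNT. Birc5, which encodes survivin of the chromosomal passenger complex, had 11.1 in both siFN libraries and 11.3 in TCM siKLF4, against 3.38 in TCM siNT. TCM siNT was the lowest TCM library for each of these genes.

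Cdca3, which helps to degrade the kinase WEE1, an inhibitor of mitosis, had 20.7 in TCM siFN, 22.8 in TCM siKLF4-siFN and 22.2 in TCM siKLF4, against 6.96 in TCM siNT. Prc1, which bundles microtubules between the separating chromosomes, had 5.90, 6.17 and 5.34, against 1.76 in TCM siNT. Cdc20, an activator of the anaphase-promoting complex, was higher in TCM siKLF4 (13) than in TCM siFN (9.54) or TCM siKLF4-siFN (10.4), and lowest in TCM siNT (3.96). The siFN libraries differed little from each other over the list, with a median of 0.00.

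DNA replication genes followed with smaller differences. All 26 measured members of the S phase list were higher in both siFN libraries, 4 of them by at least 1, with medians of 0.72 in TCM siFN, 0.71 in TCM siKLF4-siFN and 0.77 in TCM siKLF4. Rrm2, the small subunit of ribonucleotide reductase, had an FPKM of 26.3 in TCM siFN, 25.3 in TCM siKLF4-siFN and 28.0 in TCM siKLF4, against 8.79 in TCM siNT. Its large subunit gene Rrm1 had 6.93, 6.94 and 6.88, against 2.81 in TCM siNT. Mcm3, a subunit of the replicative helicase, had 8.13, 7.86 and 8.31, against 3.13 in TCM siNT. The homology region was found in 3 of 34 promoters of this list (8.82%) and a CCAAT box in 20 (58.8%).

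Chromatin proteins of dividing cells lay on the same side. Of 17 HMG proteins and related factors 16 were higher in both siFN libraries, with medians of 0.38 and 0.44, and 0.24 in TCM siKLF4. Hmgb2, a DNA-bending protein abundant in dividing cells, had 20.7 in TCM siFN, 21.7 in TCM siKLF4-siFN and 19.3 in TCM siKLF4, against 6.5 in TCM siNT. Hmga1, another architectural factor, was the exception, with 8.57, 8.11 and 8.19, against 12.4 in TCM siNT. Of 15 histone genes 11 were higher and 3 lower in both siFN libraries.

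Regulators of G1 and targets of p53 lay mostly on the higher side, with members on both sides. Of 13 G1 genes 9 were higher and 3 lower in both siFN libraries. Their medians were 0.44 in TCM siFN, 0.55 in TCM siKLF4-siFN and 0.53 in TCM siKLF4. Ccnd1, cyclin D1, which adhesion and mitogens are known to induce, had an FPKM of 8.18 in TCM siFN, 7.56 in TCM siKLF4-siFN and 7.91 in TCM siKLF4, against 4.51 in TCM siNT. Cdkn1a, which encodes the cell cycle inhibitor p21, had 46.2, 45.5 and 52.2, against 30.3 in TCM siNT. Inhibitor and cyclin were therefore both above TCM siNT, while Myc lay below it, at 12.8, 13.1 and 15.3, against 20 in TCM siNT.

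Of 19 p53 targets 12 were higher and 6 lower in both siFN libraries, 3 of them higher by at least 1. Their medians were 0.35 in TCM siFN, 0.33 in TCM siKLF4-siFN and 0.37 in TCM siKLF4. Ccng1, cyclin G1, had 68.2 in TCM siFN, 69.3 in TCM siKLF4-siFN and 44.7 in TCM siKLF4, against 22 in TCM siNT, differences of 1.59 and 1.61. TCM siKLF4 lay between the siFN libraries and TCM siNT for this gene. Trp53inp1, a p53-induced stress protein, had 36.8, 36.1 and 31.2, against 16.5 in TCM siNT.

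Interferon-stimulated genes and chemokines held the single largest difference. These genes are switched on when interferon or foreign nucleic acid is sensed, through factors that bind the response element printed above, which was found in 14 of 24 promoters of this list (58.3%) and in 3.49% of all promoters. All 9 measured members, of 33 listed, were higher in both siFN libraries, against 41.6% of all rows. By at least 1 there were 5, against 1.32% of all rows. The medians were 1.41 in TCM siFN, 1.49 in TCM siKLF4-siFN and 1.25 in TCM siKLF4. Cxcl10, a chemokine that attracts T cells, lies on chromosome 5 (92346638 to 92348889, minus strand). It had an FPKM of 50.8 in TCM siFN, 51.2 in TCM siKLF4-siFN and 53 in TCM siKLF4, against 7.5 in TCM siNT, differences of 2.61 and 2.62. The 3 libraries lay close together and TCM siNT far below them.

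Isg15, a ubiquitin-like modifier, had 18.6 in TCM siFN, 18.2 in TCM siKLF4-siFN and 20.6 in TCM siKLF4, against 4.69 in TCM siNT. Rsad2, which encodes the antiviral enzyme viperin, had 11.2, 10.9 and 8.65, against 3.04 in TCM siNT. Ccl5, another T cell chemokine, had 6.56, 6.52 and 7.99, against 1.62 in TCM siNT. Antigen presentation did not show such differences: of 10 genes of the MHC class I pathway 6 were higher and 3 lower in both siFN libraries. The medians were 0.13 in TCM siFN, 0.10 in TCM siKLF4-siFN and 0.39 in TCM siKLF4. Calr and Pdia3, which were lower, are also on the list of endoplasmic reticulum chaperones described below. B2m, the light chain of class I molecules, had 24.6, 26.9 and 24.3, against 17.4 in TCM siNT.

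**Figure D2:**
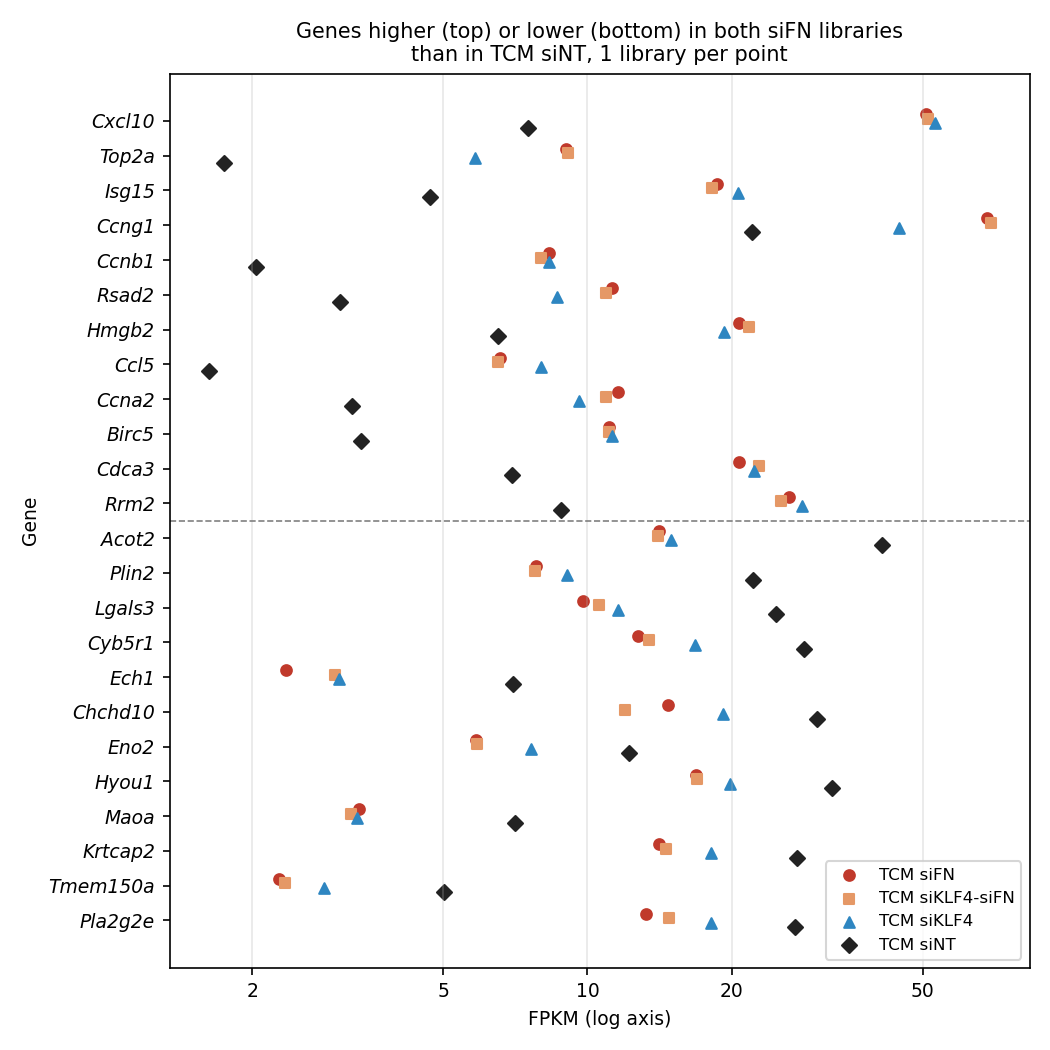
FPKM (x axis, log axis) of the 12 genes with an official name and the largest difference higher in both siFN libraries (top) and the 12 lower (bottom), 1 point per TCM library. In the top genes the black diamonds of TCM siNT lie left of the other 3 libraries and in the bottom genes right of them, as for Cxcl10 (50.8, 51.2, 53 and 7.5) and Acot2 (14.1, 14.0, 15.0 and 41.2).

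Lower values were found for genes of lipid storage and mitochondrial fat metabolism. Of 20 measured genes of this list 16 were lower and 4 higher in both siFN libraries, 3 of them lower by at least 1. Acot2, a mitochondrial enzyme that splits acyl-CoA, lies on chromosome 12 (83987861 to 83993873, plus strand). It had an FPKM of 14.1 in TCM siFN, 14.0 in TCM siKLF4-siFN and 15.0 in TCM siKLF4, against 41.2 in TCM siNT, differences of -1.48 and -1.49. Plin2, the coat protein of lipid droplets, had 7.81, 7.77 and 9.06, against 22.1 in TCM siNT. Both genes put TCM siNT alone at the high end of the TCM libraries.

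Ech1, an enzyme of unsaturated fatty acid oxidation, had 2.36 in TCM siFN, 2.98 in TCM siKLF4-siFN and 3.04 in TCM siKLF4, against 6.99 in TCM siNT. The list median was -0.20 (TCM siFN) and -0.26 (TCM siKLF4-siFN). Over the 7 members past the floor of 5, which a gene can pass through TCM siNT alone, it was -0.83 and -0.49, and all 7 were lower in both. Outside the list, the galectin gene Lgals3 had 9.78, 10.6 and 11.6, against 24.7 in TCM siNT. Cyb5r1, a reductase of the cytochrome b5 family, had 12.8, 13.4 and 16.8, against 28.3 in TCM siNT. The largest lower difference of all rows was that of Gm10800, a gene model annotated as protein coding and without an official name, named after its values were seen. It had 2.79, 2.87 and 1.44, against 11.8 in TCM siNT, differences of -1.75 and -1.73 for the siFN libraries.

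Chaperones of the endoplasmic reticulum, which fold secreted and membrane proteins and are induced by unfolded protein, were lower as a list. Of 20 members 17 were lower and 3 higher in both siFN libraries, with medians of -0.48 in TCM siFN, -0.42 in TCM siKLF4-siFN and -0.35 in TCM siKLF4, and none differed by at least 1 in both. Hspa5, the main chaperone of this compartment, had an FPKM of 275 in TCM siFN, 286 in TCM siKLF4-siFN and 259 in TCM siKLF4, against 446 in TCM siNT. Hyou1, its partner, had 16.9 in both siFN libraries and 19.9 in TCM siKLF4, against 32.3 in TCM siNT. Hsp90b1 went against the list, with 52.0 in TCM siFN, 56.9 in TCM siKLF4-siFN and 36.6 in TCM siKLF4, against 42.5 in TCM siNT. The stress element printed for Hspa5 was found in 8 of 17 promoters of the list (47.1%) and in 0.13% of all promoters.

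The amino acid and stress response under ATF4 and CHOP, which raises amino acid supply, showed the same side. Of 18 members 15 were lower and 2 higher in both siFN libraries, with medians of -0.44, -0.39 and, in TCM siKLF4, -0.26. Ppp1r15a, which lets translation resume, had 81.4 in TCM siFN, 75.6 in TCM siKLF4-siFN and 99.3 in TCM siKLF4, against 129 in TCM siNT. Trib3, a pseudokinase of this response, had 30.1, 29.2 and 37.0, against 47.6 in TCM siNT. Gadd45a, a growth arrest gene, had 54.0, 51.5 and 51.5, against 94.4 in TCM siNT. For Ppp1r15a and Trib3, TCM siKLF4 lay between the siFN libraries and TCM siNT.

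Amino acid uptake and synthesis genes were lower in 16 of 17 cases, with medians of -0.35 (TCM siFN) and -0.29 (TCM siKLF4-siFN). Slc3a2, a subunit of amino acid exchangers, had an FPKM of 29.7 in TCM siFN, 27.9 in TCM siKLF4-siFN and 36.8 in TCM siKLF4, against 45.0 in TCM siNT. Asns, asparagine synthetase, had 19.9, 20.3 and 24.4, against 26.9 in TCM siNT. The 20 aminoacyl-tRNA synthetases were lower in 16 cases and higher in 4, with small medians of -0.15 and -0.11. Against SFM siNT these medians were 0.19 and 0.18, and those of the amino acid list were -0.12 and -0.10. The element TGATGNAA, a known site of ATF4 with its partners, was found on either strand in 6 of 20 promoters of the ATF4 and CHOP list (30%), in 4 of 15 of the amino acid list (26.7%) and in 4.06% of all promoters.

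Lysosome and antioxidant genes were lower to a smaller extent. Of 32 lysosome and autophagy genes 26 were lower and 5 higher in both siFN libraries, with medians of -0.28 and -0.25. Ctsl, a cathepsin that cuts proteins in lysosomes and in matrix, had 49.8 in TCM siFN, 51.7 in TCM siKLF4-siFN and 53.6 in TCM siKLF4, against 85.5 in TCM siNT. Of 21 NRF2 targets 13 were lower and 5 higher. Hmox1, which breaks down haem, had 93.8, 92.7 and 111, against 165 in TCM siNT.

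Sterol synthesis went the other way. Of 30 cholesterol and fatty acid synthesis genes 23 were higher and 3 lower in both siFN libraries, with medians of 0.28 in TCM siFN, 0.25 in TCM siKLF4-siFN and 0.31 in TCM siKLF4. Idi1, an enzyme of isoprenoid synthesis, had 30.2, 30.9 and 26 in those libraries, against 19.4 in TCM siNT. Hmgcs1, which makes the precursor of mevalonate, had 28.4, 27.8 and 25.1, against 18.4 in TCM siNT. None of the list differed by at least 1 in both siFN libraries.

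**Figure D3:**
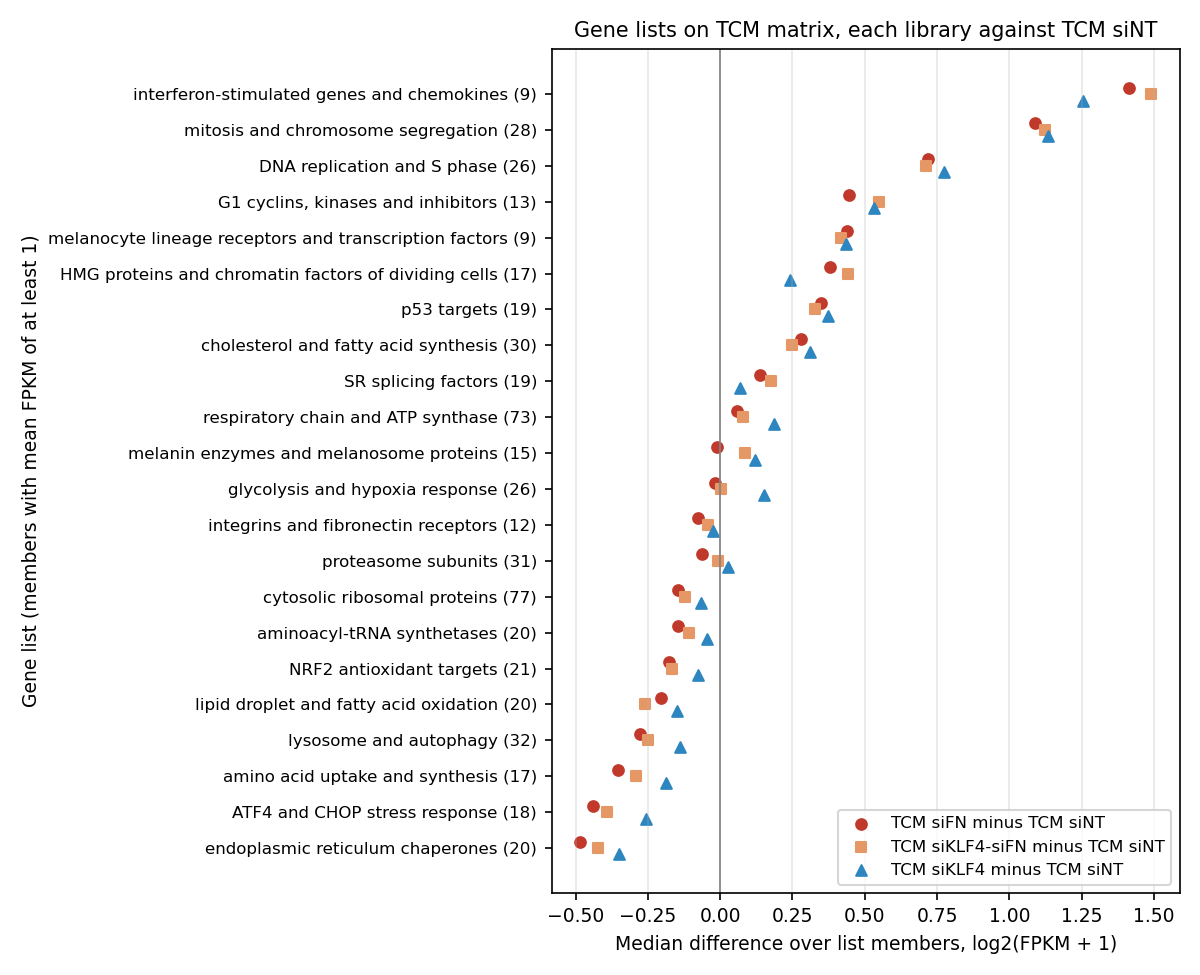
Median difference from TCM siNT (x axis, log2(FPKM + 1)) of 22 gene lists (y axis, number of members counted in brackets), 1 point per TCM library. The points of a list lie close together for the siFN libraries, from interferon-stimulated genes (1.41 and 1.49) to endoplasmic reticulum chaperones (-0.48 and -0.42), and TCM siKLF4 lies on the same side at both ends (1.25 and -0.35).

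Adhesion genes of the melanoma cells lay on both sides of TCM siNT, as all rows did (41.6% higher and 44.8% lower in both siFN libraries). Of 12 measured integrin and fibronectin receptor genes 5 were higher and 6 lower in both siFN libraries, with medians of -0.08 and -0.04 beside -0.01 over all rows. Itgb1, the shared beta chain of most fibronectin-binding integrins, had an FPKM of 15.2 in both siFN libraries and 13.8 in TCM siKLF4, against 13.2 in TCM siNT. Itga5, the alpha chain specific for fibronectin, chosen for mention after its values were seen, had 1.12 in TCM siFN, 1.23 in TCM siKLF4-siFN and 1.40 in TCM siKLF4, against 2.33 in TCM siNT. Zyx, zyxin of focal adhesions, had 28.6, 27.5 and 33.3, against 50.9 in TCM siNT. Mcam, a melanoma adhesion molecule, had 18.8, 20.4 and 22.2, against 33 in TCM siNT.

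Of 15 targets of YAP and SRF, the factors that respond to adhesion and actin tension, 6 were higher and 6 lower in both siFN libraries. Flna, filamin A, had 47.3 in TCM siFN, 44.3 in TCM siKLF4-siFN and 51.2 in TCM siKLF4, against 63.3 in TCM siNT. Tpm1, a tropomyosin, had 14.1, 14.0 and 13.4, against 10.2 in TCM siNT. Matrix proteases were likewise split, with 7 of 12 higher and 5 lower. The medians of these adhesion lists moved with the floor. Over members past the floor of 5 they were -0.27 and -0.30 for 5 integrin genes, -0.24 and -0.20 for 4 protease genes and -0.10 and -0.04 for 10 YAP and SRF targets, beside -0.05 and -0.05 over all 2774 genes.

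Among pigment cell genes, all 9 measured lineage receptors and transcription factors were higher in both siFN libraries, with medians of 0.44 and 0.42, and 0.44 in TCM siKLF4. Mc1r, the melanocortin receptor, had 20.5 in TCM siFN, 22.3 in TCM siKLF4-siFN and 22.5 in TCM siKLF4, against 8.24 in TCM siNT. Sox10, a lineage factor, had 26.7, 25.0 and 31.5, against 21.8 in TCM siNT. Of 15 melanin and melanosome genes 7 were higher, 4 lower and 4 on opposite sides of TCM siNT, with medians of -0.01 and 0.09. The difference between these lists was not tested. Tyrp1, an enzyme of melanin synthesis, had 202, 219 and 208, against 298 in TCM siNT, while Pmel, the melanosome fibril protein, had 69.8, 72.2 and 88.6, against 67.3.

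Growth and energy lists had small medians. Of 77 cytosolic ribosomal protein genes 53 were lower and 14 higher in both siFN libraries, with medians of -0.15 and -0.12. Of 73 respiratory chain genes 40 were higher and 24 lower, with medians of 0.06 and 0.08. The 26 glycolysis and hypoxia genes were split 12 and 12, the 31 proteasome subunits 10 higher and 15 lower.

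A different group of genes separated the siFN libraries from TCM siKLF4 as well. It was described after the values were seen, by ranking genes on the smaller distance of both siFN libraries from both TCM siNT and TCM siKLF4. By at least 1, 10 genes (0.36%) were above both libraries and 0 below, and 7 of the 10 had no official name. Of the 10, 5 passed the floor of 5 only through the siFN libraries and so had to be higher there than in TCM siNT, Kif5b and Ssb among them. Kif5b, the heavy chain of the motor kinesin-1, lies on chromosome 18 (6201002 to 6242174, minus strand). It had an FPKM of 5.81 (TCM siFN) and 6.15 (TCM siKLF4-siFN), against 1.75 in TCM siKLF4 and 1.87 in TCM siNT. Ssb, the La protein that binds new RNA polymerase III transcripts, had 10.6 and 11.8, against 3.85 in TCM siKLF4 and 4.30 in TCM siNT. Hsp90aa1, the inducible cytosolic chaperone HSP90, had 55.9 and 65.0, against 26.5 in TCM siKLF4 and 25.9 in TCM siNT. For these genes TCM siKLF4 was at the level of TCM siNT. SFM siNT was not: for Kif5b and Hsp90aa1 it lay slightly above TCM siFN and below TCM siKLF4-siFN. For Ssb it lay below both siFN libraries.

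Others named by this ranking were closer to the controls. Eif2s2, a subunit of the initiation factor that brings the first tRNA, had 7.10 (TCM siFN) and 7.25 (TCM siKLF4-siFN), against 3.32 in TCM siKLF4 and 3.31 in TCM siNT. Eif3a, the largest subunit of the scaffold of initiation, had 17.8 and 18.5, against 10.1 and 10.4. Ncl, nucleolin, had 41.5 and 43.4, against 24.0 and 26. Each of the 12 genes named by this ranking was lowest in SFM siKLF4-siFN of all 8 libraries, as for Hsp90aa1 at 7.09.

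**Figure D4:**
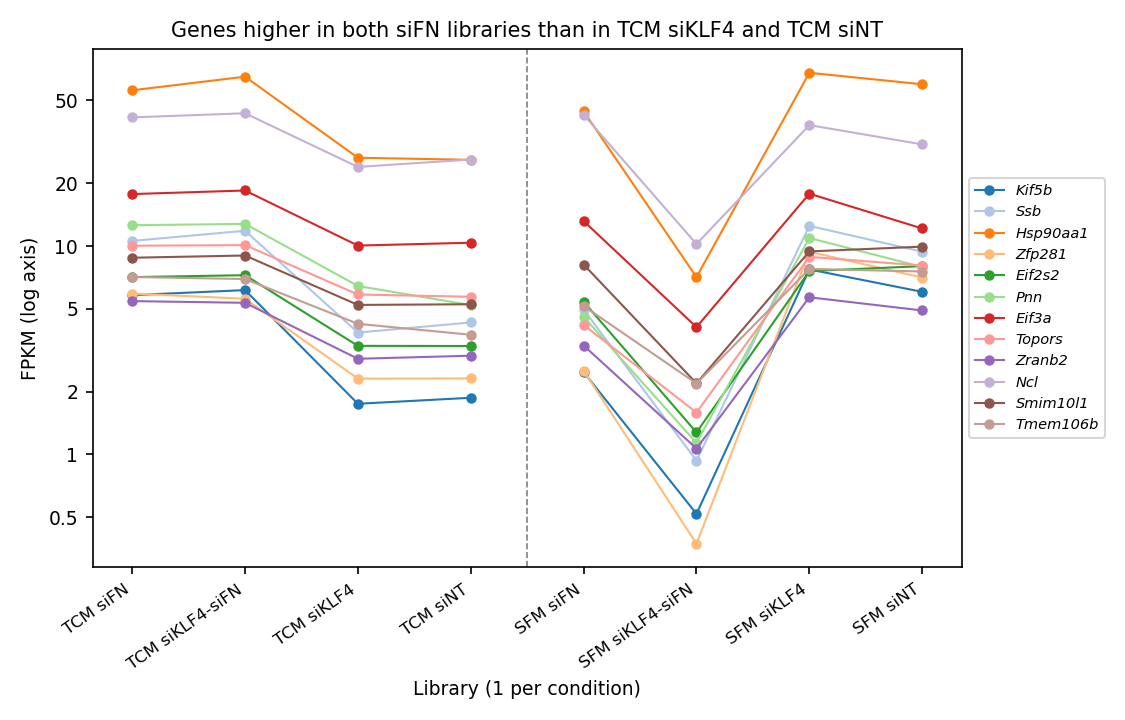
FPKM (y axis, log axis) of the 12 genes furthest above both TCM siKLF4 and TCM siNT in the siFN libraries, by library (x axis, 1 per condition, lines only join the points of a gene within a medium). Both siFN libraries stand above both other TCM libraries in each gene, and SFM siKLF4-siFN is the lowest of all, for example 0.519 for Kif5b against 5.81 and 6.15 in the TCM siFN and TCM siKLF4-siFN libraries.

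Among genes below both controls, G6pc3, a glucose-6-phosphatase, had 4.13 (TCM siFN) and 4.16 (TCM siKLF4-siFN), against 6.73 in TCM siKLF4 and 6.48 in TCM siNT. Eif6, a factor of ribosome subunit assembly, had 9.49 and 9.23, against 13.1 and 13. Ddost, a subunit of the enzyme that attaches sugar chains to proteins, had 10.3 in both, against 13.8 and 15.1. The siFN libraries were the lowest of the TCM libraries for each.

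Base composition moved with this second group. The 26 protein-coding genes above both controls by 0.4 had a median GC content of 42.0% and a median length of 5291.5 nucleotides, against 56.6% and 2501.5 nucleotides for the 36 genes below both by 0.3. Over all 1952 protein-coding genes the medians were 51.4% and 3190.5. The 39 protein-coding genes higher in both siFN libraries than in TCM siNT by at least 1 had a median GC content of 47.1%. That of the 120 lower in both by 0.5 was 53.8%. In 4 equal groups of genes from the lowest to the highest GC content, the median difference was 0.09, -0.05, -0.13 and -0.19 for TCM siFN minus TCM siNT and 0.11, -0.04, -0.14 and -0.19 for TCM siKLF4-siFN minus TCM siNT. It was 0.01, 0.04, 0.03 and 0.01 for TCM siKLF4 minus TCM siNT. For TCM siFN minus TCM siKLF4 it was 0.04, -0.09, -0.16 and -0.20, and for TCM siKLF4-siFN minus TCM siKLF4 0.07, -0.09, -0.15 and -0.21. The part of base composition in these differences was not tested.

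**Figure D5:**
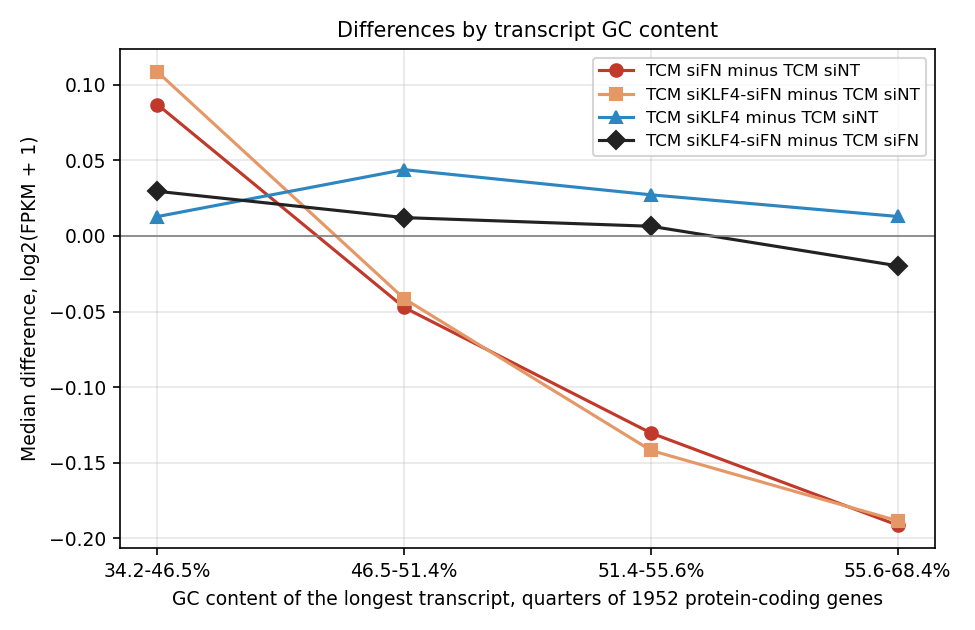
Median difference (y axis, log2(FPKM + 1)) in 4 equal groups of 1952 protein-coding genes by GC content of the longest transcript (x axis, %). The lines of both siFN libraries against TCM siNT descend from 0.09 and 0.11 to -0.19 each, while TCM siKLF4 against TCM siNT stays between 0.01 and 0.04 and the 2 siFN libraries against each other between -0.02 and 0.03.

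The siFN libraries were then set against each other, which asks what siKLF4 added to siFN. By this measure 6 of 2774 genes (0.216%) differed by at least 1, all higher in TCM siKLF4-siFN. Of these, 4 were annotated as pseudogenes and 2 were not matched to the annotation, beside 713 and 72 of all 2774 genes. The pseudogenes Gm10193 and Rpl10-ps6 missed the threshold in the other direction narrowly, with differences of -0.9997 and -0.998. None of the 1952 protein-coding genes reached it. Yam1, 1 of the unmatched rows, had an FPKM of 27.4 in TCM siKLF4-siFN, against 11.6 in TCM siFN, a difference of 1.17. It had 7.84 in TCM siKLF4 and 5.58 in TCM siNT. Of protein-coding genes, Mpv17l2, a mitochondrial ribosome assembly factor, had 6.47 in TCM siKLF4-siFN, against 4.53 in TCM siFN, a difference of 0.43. Hirip3, a histone-binding protein, had 5.62, against 7.59 in TCM siFN, a difference of -0.38. These are the largest in each direction among named protein-coding genes.

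Several of the next genes were short. Rps13 and Rpl6, ribosomal proteins, had 4.30 and 45.8 in TCM siKLF4-siFN, against 3.14 and 36.1 in TCM siFN, while Rps27 had 4.06, against 5.34 in TCM siFN. Ribosomal protein genes have many near-identical copies, so reads can be split between them. Hilpda, an inhibitor of lipid breakdown on droplets, had 5.84, against 4.42 in TCM siFN. Of the 1952 protein-coding genes, 14.5% differed between the siFN libraries by more than a limit that counting alone passes in 5% of genes. The share was 62.3% for TCM siFN against TCM siNT, 63.2% for TCM siKLF4-siFN against TCM siNT and 50.4% for TCM siKLF4 against TCM siNT. The depths behind these shares are estimates. The siFN libraries were thus close to each other but not within counting noise, and no replicate pair of a single condition exists to compare them with.

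At the thresholds, among rows with an official name, Fam206a passed the floor of 5 with a highest FPKM of 5.00 and Prmt5 missed it with 4.99. Uhrf1 was counted as higher by at least 1 with a smaller difference of 1.02 and Hmgn2 was not, with 0.99. Cyb5r1 was counted as lower with -1.02 and Chchd10 was not, with -0.99.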

How the data were processed

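RNA of B16-F10 cells was sequenced in 8 libraries, 1 per condition, and the authors deposited FPKM values with 1 column per library. STAR 2.4.1d, Partek and the mouse build mm10 were used, per the submitters' processing notes. How reads were counted, with which annotation and strand setting, is not given in the sources used here, nor is a scaling between libraries. Overlapping genes, antisense genes and near-identical copies can therefore share reads.

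Differences were computed on the log2(FPKM + 1) scale (pandas 2.3.3, Python 3.11.15), which understates the change of low genes. Rows were kept at an FPKM of at least 5 in any of TCM siFN, TCM siKLF4-siFN and TCM siNT, and called at a difference of 1. Symbols were matched to GENCODE M21 on GRCm38, the assembly of mm10 (42801 rows, 92.1%). A further 27 rows have names that look like dates and were left unnamed. Depth was estimated from the steps between low FPKM values of single-transcript genes over 600 nucleotides. Between 42.0% and 45.2% of these values lay within 0.05 read of a whole number, so depths are approximate, and errors cover counting only. The counting of calls was checked on simulated data.

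Named genes are, among rows with an official name, the 12 with the largest smaller difference in each direction, the 8 between the siFN libraries, and up to 6 members per list. The members and lists were chosen with earlier results of these data known. Alternatives were another pseudocount, other floors, centring, protein-coding genes alone and other control libraries.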

Additional observations from a re-analysis of the deposited data

Results flagged for a closer look

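Of the 24 genes named as higher or lower in both siFN libraries than in TCM siNT, 12 lay on opposite sides of siNT in the other medium, with both siFN libraries of a medium on the same side by at least 1. The 24 genes were picked for their distance from TCM siNT, and the share of all rows that lay this way was not counted. The difference between media was not tested, and each medium has 1 siNT library. Differences are siFN, then siKLF4-siFN, minus siNT of the same medium. Cxcl10 differed by 2.61 and 2.62 on TCM matrix, and by -1.45 and -3.18 on SFM matrix. The mitosis gene Top2a differed by 1.87 and 1.88 on TCM matrix, and by -2.41 and -2.80 on SFM matrix. For Ccnb1 the values were 1.62 and 1.57 on TCM matrix, against -2.40 in each siFN library on SFM matrix. For Ccna2 they were 1.57 and 1.5, against -2.58 and -3.00. Birc5 had 1.46 in both TCM libraries and -2.53 and -2.46 on SFM matrix. Cdca3 had 1.45 and 1.58 on TCM matrix and -2.78 and -2.65 on SFM matrix. Rrm2, of DNA replication, had 1.48 and 1.43, against -2.73 and -2.46. Hmgb2 had 1.53 and 1.60, against -1.84 and -2.45, and Ccng1 had 1.59 and 1.61, against -1.33 and -3.10.

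The opposite order was found in 3 genes. The lipid genes Acot2 and Plin2 differed by -1.48 and -1.49, and by -1.39 and -1.40, on TCM matrix, against 1.79 and 1.51, and 1.04 and 1.62, on SFM matrix. Cyb5r1 differed by -1.09 and -1.02 on TCM matrix, against 1.36 and 1.48 on SFM matrix. The levels behind these signs show SFM siNT near the TCM siFN libraries. Top2a, for example, had an FPKM of 0.559 (SFM siFN) and 0.187 (SFM siKLF4-siFN), against 7.29 in SFM siNT.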

How the results depend on the processing

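The counts of 68 higher, 6 lower and 6 differing between the siFN libraries moved with these settings. A pseudocount of 0.1 gave 82 higher, 13 lower and 10 between. A floor of 1 or none gave 45 between, and a floor of 20 gave 24 higher and 1 between. Protein-coding genes alone gave 39 higher and 0 between. TCM siKLF4 as control gave 18 higher and 2 lower, of which 10 and 0 are shared with the calls against TCM siNT. SFM siNT as control gave 16 higher and 19 lower, with 0 shared. TCM siNT and TCM siKLF4 together, chosen after seeing the data, gave 10 higher and 0 lower.

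List medians moved with the members counted. Over members past the floor of 5, 32 of 62 medians moved by more than 0.0687, the median difference between the siFN libraries, when the floor was 1, and 35 of 48 when it was 20. With TCM siKLF4 as control, 136 of 460 gene values and 23 of 62 medians over these members did not keep their sign, and with SFM siNT 201 and 22. Over members with a mean FPKM of at least 1, a count added after seeing the data, 29 of 64 medians did not with TCM siKLF4 and 27 with SFM siNT. In TCM siFN and TCM siKLF4-siFN, those against TCM siKLF4 were -0.03 and -0.03 for mitosis, -0.08 and -0.08 for DNA replication, and -0.10 and -0.09 for cholesterol and fatty acid synthesis. They were -0.09 and -0.11 for p53 targets, -0.09 and -0.06 for G1 genes, -0.05 and -0.02 for the melanocyte lineage, and -0.03 and 0.04 for interferon genes. Over all such rows the median against TCM siKLF4 was -0.07 in each siFN library. Against SFM siNT, medians of lower lists turned to 0.11 and 0.15 (endoplasmic reticulum chaperones) and 0.19 and 0.18 (aminoacyl-tRNA synthetases). That of ATF4 and CHOP turned to 0.04 in TCM siFN alone. Those of the amino acid, lysosome, lipid and NRF2 lists kept their sign.

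The values that follow are those of at least 1 against TCM siNT that turned, with medians over members past the floor of 5. With TCM siKLF4 as control, medians turned to -0.0092 for mitosis (TCM siFN) and to -0.060 and -0.048 for interferon genes (TCM siFN, TCM siKLF4-siFN). Over all 2774 genes the median against TCM siKLF4 was -0.10 in each siFN library. Single genes turned, in TCM siFN then TCM siKLF4-siFN, to -0.0241 and -0.0244 (Birc5), -0.25 and -0.26 (Ccl5), -0.41 and -0.30 (Cdc20), -0.060 and -0.048 (Cxcl10), -0.032 and -0.075 (Gtse1), -0.14 and -0.17 (Isg15), -0.13 and -0.014 (Mc1r), -0.028 and -0.073 (Mcm3), -0.086 and -0.14 (Rrm2) and -0.085 and -0.15 (Uhrf1). In TCM siFN alone they turned to -0.094 (Cdca3), -0.058 (Hmgn2) and -0.033 (Ifit3), and in TCM siKLF4-siFN alone to -0.044 (Ccnb1).

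With SFM siNT as control, the mitosis medians turned to -0.056 and -0.013, and genes to -0.0099 and -0.010 (Birc5), -0.059 and -0.066 (Ccl5), -0.12 and -0.20 (Ccna2), -0.15 and -0.20 (Ccnb1), -0.043 and -0.021 (Ccng1), -0.13 and -0.016 (Cdc20) and -0.27 and -0.16 (Mc1r). In TCM siFN alone they turned to -0.10 (Cdca3), -0.23 (Hmgn2), -0.094 (Hsp90aa1), -0.045 (Kif5b) and -0.22 (Zfp281), and in TCM siKLF4-siFN alone to -0.12 (Mcm4) and -0.0031 (Rrm2). The cause was not tested. Under the other settings no difference of at least 1 changed sign. No paired analysis was possible because each condition has 1 library without a replicate number.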

Other observations

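Further lists had small medians. Of 19 SR splicing factors 15 were higher and 2 lower in both siFN libraries than in TCM siNT, with medians of 0.14 and 0.18, and 0.07 in TCM siKLF4. Clk1, a kinase of these factors, had an FPKM of 9.19 (TCM siFN) and 9.98 (TCM siKLF4-siFN), against 6.92 in TCM siKLF4 and 6.37 in TCM siNT. Of 12 genes of the invasive melanoma state 7 were higher and 5 lower. Vim, the intermediate filament vimentin, had 205 and 225 in the siFN libraries and 215 in TCM siKLF4, against 163 in TCM siNT. Sparc, a secreted matrix protein, had 16.7 and 18.5, with 17.7 in TCM siKLF4, against 13.2 in TCM siNT.

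Of 19 AP-1 and immediate early genes 7 were higher and 10 lower in both siFN libraries. Among them, Jund had 32.4 (TCM siFN) and 26.5 (TCM siKLF4-siFN), with 33.6 in TCM siKLF4, against 42.0 in TCM siNT. Of 8 polyamine genes 3 were higher and 4 lower. Srm, spermidine synthase, had 7.90 and 8.22, with 9.93 in TCM siKLF4, against 15.0 in TCM siNT. Odc1, the first enzyme of this pathway, had 30.2 and 30.5, with 36.0 in TCM siKLF4, against 39.8 in TCM siNT. Of 8 ERK feedback genes 6 were higher and 2 lower, and of 4 galectins 1 was higher and 3 lower.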
